A study of Mus musculus with 4 samples.

Results

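The type I interferon response genes followed here are 40 listed symbols, of which 38 were measured among the 32285 genes of each matrix. Mx1 and Mx2 are not analysed here. The list was read in single cells of mouse blood, gene by gene and as a summed module, in classical and nonclassical monocytes, B cells, T cells, natural killer (NK) cells, plasmacytoid dendritic cells and macrophages.

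The groups were BL/6 mice at 12 months, BL/6 mice at 20 months, SM/J mice at 12 months and SM/J mice at 20 months, with no treatment or altered allele named in any of them. BL/6 and SM/J are inbred strains, and the series set their ageing side by side in a study of disc herniation and pain. Blood was drawn from the heart, and mononuclear cells were taken over a density gradient with removal of platelets and lysis of red cells. Both ages of a strain shared 1 droplet run, and the cells of each age were split from it by sample tag into a matrix that is called a library here. Because of this sharing, strain and run cannot be told apart, while the ages of a strain were compared within a run.

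Type I interferons bind a receptor on nearly all cells, and its kinases Jak1 and Tyk2 then activate transcription factors such as Stat2. Stat2 and Irf9 take part in a complex that binds the interferon-stimulated response element upstream of the genes listed here. Their products sense foreign nucleic acid, block steps of viral growth or feed back on the pathway, and monocytes are known as cells in which many of them are readily induced.

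The element itself can be read in the sequence. A core of it, GAAANNGAAA (TTTCNNTTTC on the other strand), was searched on both strands in the 250 bases before each annotated start, in the promoters of RefSeq on build GRCm38.p6. It was found for 11 of the 31 members with an entry (35.5%), against 936 of 27025 genes in all (3.46%). Windows around a match are shown for members whose values are described below, 5′ to 3′ on the strand of the gene, with the match in capitals.
Isg15 (chr4:156200856-156200915, strand -): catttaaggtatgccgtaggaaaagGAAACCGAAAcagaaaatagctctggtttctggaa
Ifit1 (chr19:34640779-34640838, strand +): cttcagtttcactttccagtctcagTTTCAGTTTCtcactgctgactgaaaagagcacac
Ifit3 (chr19:34583382-34583441, strand +): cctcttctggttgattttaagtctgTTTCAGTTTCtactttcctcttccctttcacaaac
Ifit3b (chr19:34607778-34607837, strand +): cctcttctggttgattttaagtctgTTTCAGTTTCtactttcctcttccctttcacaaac
Rsad2 (chr12:26456538-26456597, strand -): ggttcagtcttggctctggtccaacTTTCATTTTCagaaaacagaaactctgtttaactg
Oas1a (chr5:120907526-120907564, strand -): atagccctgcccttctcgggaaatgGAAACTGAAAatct
Oas3 (chr5:120777700-120777759, strand -): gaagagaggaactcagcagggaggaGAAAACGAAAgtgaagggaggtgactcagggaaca
Ddx60 (chr8:61928009-61928068, strand +): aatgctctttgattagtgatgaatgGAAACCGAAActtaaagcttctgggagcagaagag
The first capital lies 72 bases before the start in Isg15, 85 in Ifit1, 122 in Ifit3, 154 in Ifit3b, 120 in Rsad2, 14 in Oas1a, 75 in Oas3 and 53 in Ddx60. The windows of Ifit3 and Ifit3b hold the same letters, and reads of these neighbouring copies on chromosome 19 may not be separable, so their counts are uncertain. Several members lie side by side: the 5 Ifit genes on chromosome 19, Oasl1 with Oasl2 and, apart from them, Oas1a, Oas2 and Oas3 on chromosome 5, Rsad2 and Cmpk2 on chromosome 12, and Parp9, Dtx3l and Parp14 on chromosome 16. A match is a description of the letters and not a measured binding site.

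After filters on depth and on mitochondrial reads and the removal of called doublets, 3398 of 3551 and 3102 of 3272 deposited cells remained for BL/6 at 12 and 20 months, and 2407 of 2580 and 2689 of 2896 for SM/J. Deposited counts summed to between 14250603 and 30627357 unique molecular identifiers (UMIs, 1 per captured transcript) a library, and pairs of libraries shared at most 3 cell barcodes. SM/J cells at 20 months were the deepest, with a median of 8837 UMIs a kept cell against 4060 to 4914 in the other libraries. Cells of a library carry 1 of 3 sample tags, and the cells of a tag are called an aliquot. Whether a tag marks an animal is not given in the sources used here, nor are the number and sex of the mice, so aliquots show the spread within a library and are not replicates, and no test between groups is possible. Tags were poorly separated: the leading tag held a median of 63.7% to 81.1% of the tag UMIs of a cell. BL/6 and SM/J monocytes mostly fell into different clusters, classical monocytes into clusters 4 and 24, nonclassical monocytes into cluster 5 and clusters 6 and 7, as did most B cells, so values between strains compare different clusters there. Ifi44, a member, was among the leading genes of cluster 24, although the members had no part in the clustering.

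All 8 markers listed for classical monocytes (Ly6c2, Ccr2 and others) were detected in the classical class, and all 12 for nonclassical monocytes (Nr4a1, Ace, Treml4 and others) in the nonclassical class, in every library. The plasmacytoid dendritic cell class also held conventional dendritic cells: at a finer clustering 23, 48, 7 and 22 cells split off and left 8, 13, 44 and 26. The macrophage class carried tissue macrophage markers such as Timd4 and Gata6, and held 30, 38 and 35 cells in 3 libraries against 398 in SM/J at 20 months.

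With Ifitm3 counted, classical monocytes carried the module at the highest level of the 7 types in every library, though in SM/J at 20 months their aliquots overlapped those of plasmacytoid dendritic cells. Of 10000 UMIs, 66.4 belonged to the members in BL/6 at 12 months (254 cells, aliquots from 65.7 to 67.5) and 45.0 at 20 months (472 cells, 43.4 to 47.7). In SM/J the level was 83.3 at 12 months (121 cells, 79.9 to 84.5) and 47.4 at 20 months (103 cells, 40.8 to 56.8). In both strains every aliquot at 12 months lay above every aliquot at 20 months. The older level was 1.47-fold lower in BL/6 and 1.76-fold lower in SM/J. Ifitm3, which blocks the fusion of viruses in endosomes, alone made up 51.9% and 63.5% of these UMIs in BL/6 and 42.3% and 54.5% in SM/J at 12 and 20 months. Without it the 37 other members summed to 32.0, 16.5, 48.1 and 21.6 per 10000, in the order BL/6 at 12 and 20 months and SM/J at 12 and 20 months, which is 1.94-fold and 2.23-fold lower at the older age. On that measure the plasmacytoid dendritic cell class stood above classical monocytes in 3 libraries, at 20.1 in BL/6 at 20 months and at 50.5 and 27.0 in SM/J at the 2 ages, with overlapping aliquots in each. That class also held conventional dendritic cells, and at the finer clustering 13 plasmacytoid dendritic cells were left in BL/6 at 20 months. Values without Ifitm3 after that split are not given here.

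Nonclassical monocytes, the patrolling type, held 42.5 member UMIs per 10000 in BL/6 at 12 months and 29.8 at 20 months. SM/J cells held 31.8 and 23.2. Again no aliquots overlapped between the ages, and the older level was 1.42-fold lower in BL/6 and 1.37-fold lower in SM/J. Macrophages stood at 38.7 and 20.4 in BL/6 and at 31.9 and 27.8 in SM/J, with every older aliquot below every younger one, on few cells in 3 of the 4 libraries. In SM/J the nearest aliquots all but met, at 28.547 at 20 months and 28.555 at 12 months. Plasmacytoid dendritic cells, the type known for making interferon, stood at 36.3 and 34.5 in BL/6 and at 55.2 and 45.3 in SM/J. Their aliquots overlapped between ages in both strains. With the conventional dendritic cells split off, the 4 values were 40.3, 41.4, 53.7 and 42.6.

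With Ifitm3 counted, lymphocytes held the lowest levels. In BL/6 and then SM/J, each at 12 and then 20 months, B cells measured 12.2, 11.7, 9.01 and 7.94 per 10000, T cells 16.5, 16.2, 15.9 and 11.9, and NK cells 15.7, 12.2, 13.6 and 13.9. Older SM/J aliquots lay below the younger ones in B and in T cells, by 1.13-fold and 1.34-fold, whereas the BL/6 aliquots overlapped in both types. NK aliquots overlapped in both strains. In BL/6 at 12 months the order with Ifitm3 was classical monocytes, nonclassical monocytes, macrophages, plasmacytoid dendritic cells, T cells, NK cells and B cells. Nonclassical monocytes and macrophages, macrophages and plasmacytoid dendritic cells, and T and NK cells were neighbours whose aliquots overlapped. With the conventional dendritic cells split off, plasmacytoid dendritic cells stood above macrophages there, on 8 cells. Leaving out Ifitm3 instead, the unsplit plasmacytoid class at 24.2 and macrophages at 23.5 stood above nonclassical monocytes at 21.3. In SM/J at 12 months plasmacytoid dendritic cells ranked above macrophages and nonclassical monocytes. Without Ifitm3, lymphocytes were not lowest in every library. In BL/6 at 20 months T cells then stood at 16.1, above nonclassical monocytes at 14.9 and macrophages at 10.2. In SM/J at 20 months NK cells stood at 13.6, above macrophages at 11.8. At 12 months lymphocytes stayed lowest on that measure, though in SM/J T and NK cell aliquots overlapped those of macrophages.

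**Figure D1:**
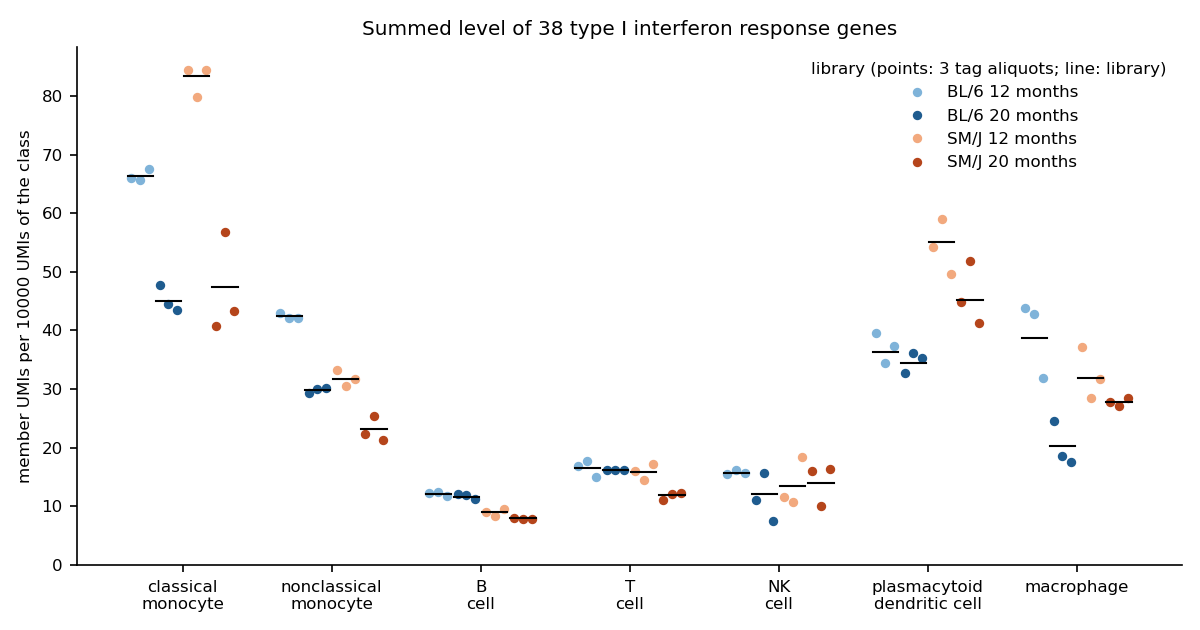
Summed UMIs of the 38 members per 10000 UMIs of the cell type, on the vertical axis, for 7 cell types and 4 libraries. Points are the 3 tag aliquots and the short line is the whole library: with Ifitm3 in the sum, as here, classical monocytes stand highest, at 66.4 and 83.3 at 12 months and at 45.0 and 47.4 at 20 months.

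Single members in classical monocytes were compared between ages within a strain as the log2 ratio of CPM, the member's share of all UMIs of the class on the usual scale, with 1 CPM added to both. A member was called lower or higher when the ratio reached 1.5-fold and no aliquot of one age overlapped those of the other, among genes with at least 50 UMIs over both libraries. Of the 32 members that passed this minimum in BL/6, 27 were called lower at 20 months and 0 higher, where 4.12% of all 8186 genes passing it were called lower and 4.10% higher. In SM/J, 21 of 28 were called lower and 0 higher, against 4.69% and 3.40% of 4907 genes. The median ratio of the members was -1.08 in BL/6 and -1.29 in SM/J, beside 0.020 and 0.0061 over all genes. All 38 members, the thin ones included, had a ratio below 0 in both strains. Between single aliquots of the 2 ages the members' median ran from -1.45 to -0.76 in BL/6 and from -1.64 to -0.67 in SM/J, and between aliquots of 1 library from -0.24 to 0.11 and from -0.89 to 0.92. The second SM/J aliquot at 20 months held 36 of the 103 cells and stood above the other aliquots of its library in most members. Without it the median was -1.58 and 25 members were called lower, beside 7.62% of all genes. With each cell thinned to 1000 UMIs, 16 members were called lower in BL/6, beside 4.56% of all genes. When the minimum was applied again to the thinned counts, 4 of 6 members were called lower in BL/6 and 3 of 5 in SM/J, with medians of -0.69 and -0.62, beside 4.02% of 2389 and 6.48% of 725 genes in all.

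**Figure D2:**
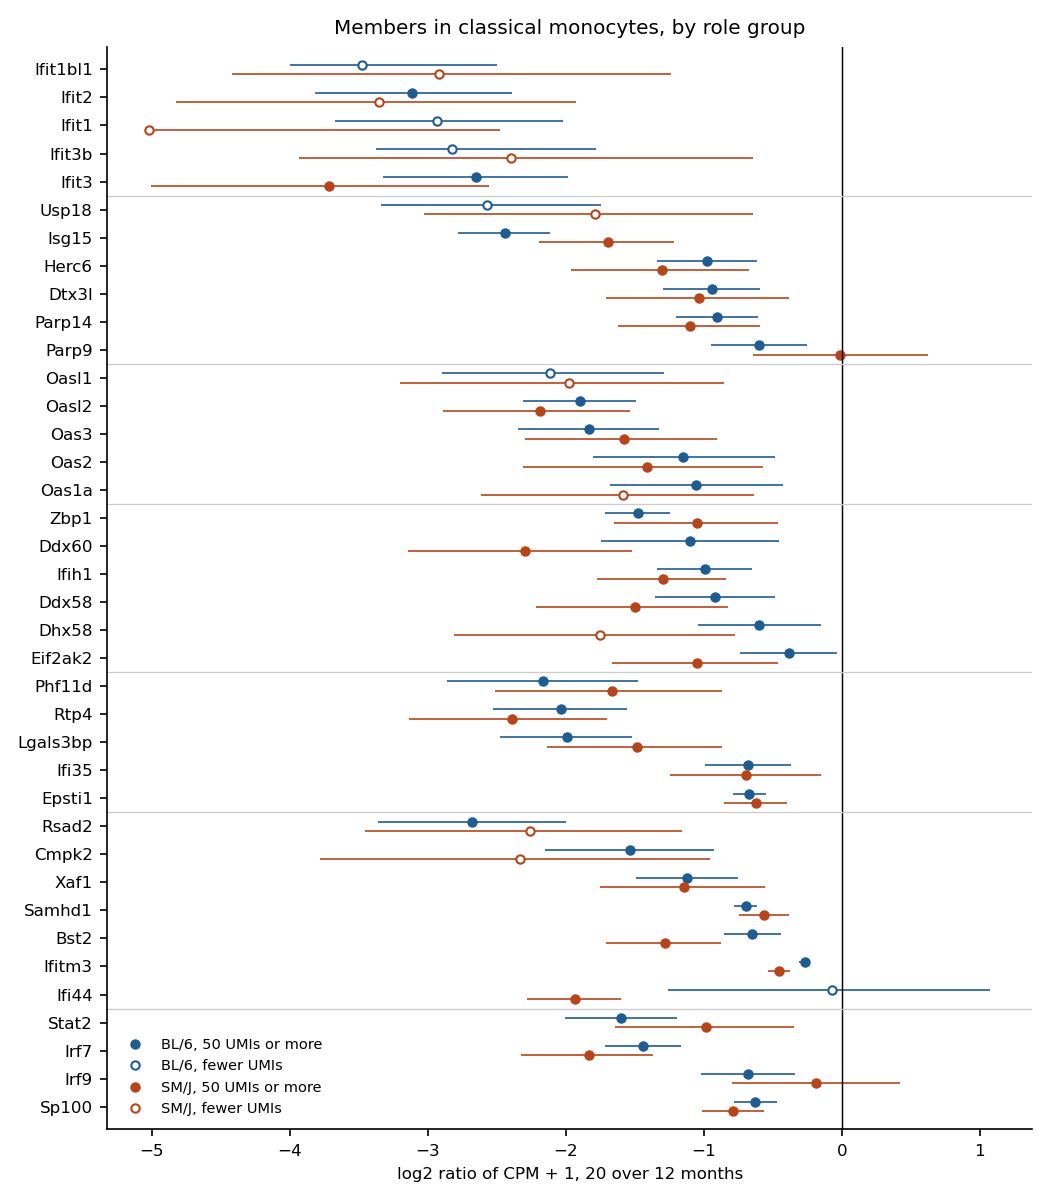
Log2 ratio of 20 over 12 months (horizontal axis, CPM plus 1) of the 38 members in classical monocytes of BL/6 and SM/J, grouped by role. Bars are 95% intervals of the counting error, filled points have at least 50 UMIs over both ages and open points fewer: all points lie below 0.

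The IFIT proteins bind foreign RNA and halt its translation, and those with enough UMIs were called lower. Ifit2 was at 19.8, 17.3 and 57.2 CPM in the aliquots of BL/6 at 12 months and at 2.23, 1.38 and 4.05 at 20 months, a log2 ratio of -3.11 (95% interval -3.81 to -2.39). In SM/J its 12-month aliquots held 50.4, 37.4 and 46.9 CPM, and 41 UMIs became 3, under the minimum for a call. Ifit3 was at 20.9, 28.8 and 39.5 CPM at 12 months against 5.93, 2.07 and 3.48 at 20 months in BL/6, and at 88.9, 93.6 and 90.9 against 0, 14.1 and 2.57 in SM/J. Both Ifit3 ratios were called lower, -2.65 and -3.72, and 1 older SM/J aliquot held no Ifit3 UMI. Ifit1, Ifit3b and Ifit1bl1 had too few UMIs for a call between the ages in both strains. Ifit1 had 36 UMIs at 12 months and 5 at 20 months in BL/6, while 28 became 0 in SM/J, where it was at least 8.76-fold lower against a floor of 3 counts in the library. Ifit3b went from 22 to 2 UMIs in BL/6 and Ifit1bl1 from 36 to 2, with 15 to 2 and 22 to 2 in SM/J.

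The ISG15 group covers a ubiquitin-like tag, its ligase and protease, and enzymes that attach ubiquitin or ADP-ribose. Of its 6 members, 5 were called lower of 5 that passed the minimum in BL/6, and 4 of 5 in SM/J. Isg15, the tag itself, was at 94.9, 129.6 and 139 CPM at 12 months and 31.2, 15.2 and 17.95 at 20 months in BL/6, a ratio of -2.44 (95% interval -2.78 to -2.11). In SM/J it went from 193, 206 and 141 to 12.3, 102 and 35.9, a ratio of -1.69 (95% interval -2.19 to -1.21), with the second older aliquot above the other older ones. Herc6, the mouse ligase of ISG15, was called lower at -0.98 and -1.30, the ubiquitin ligase Dtx3l at -0.94 and -1.03, and the ADP-ribosyltransferase Parp14 at -0.91 and -1.10, in BL/6 and SM/J. Parp9, the partner of Dtx3l, differed from these. It was at 38.6, 54.7 and 64.01 CPM against 34.1, 33.1 and 33.02 in BL/6 and called lower, but in SM/J its aliquots held 38.5, 56.1 and 55.7 CPM at 12 months and 36.8, 59.8 and 46.2 at 20 months. That SM/J ratio was -0.0096 (95% interval -0.65 to 0.62) and the aliquots overlapped. Usp18, the protease that removes ISG15 and damps the receptor, had 40 and 9 UMIs in BL/6 and 28 and 7 in SM/J, too few for a call.

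Restriction factors and nucleotide enzymes act on viral entry, genome copying or release. Among the 7 measured, 4 of 6 were called lower in BL/6 and 3 of 5 in SM/J. Rsad2, also named viperin, makes a nucleotide that stops RNA synthesis. It was at 22.95, 27.4 and 35.4 CPM in BL/6 at 12 months and 2.23, 4.83 and 3.48 at 20 months, a ratio of -2.68 (95% interval -3.36 to -1.998), and in SM/J at 14.8, 23.4 and 85.02 against 6.13, 21.1 and 0, with too few UMIs for a call. Its neighbour Cmpk2, a mitochondrial nucleotide kinase, was called lower in BL/6 at -1.54 and went from 25 to 4 UMIs in SM/J. Xaf1 was called lower in both strains at -1.12 and -1.14.

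Ifitm3, the most abundant member, stayed under 1.5-fold in both strains. Its aliquots held 3574, 3418 and 3298 CPM against 2986, 2878 and 2741 in BL/6, and 3512, 3489.6 and 3571 against 2458, 2741 and 2515 in SM/J. Older aliquots lay below younger ones in both, and the ratios of -0.27 (95% interval -0.31 to -0.23) and -0.45 (95% interval -0.53 to -0.37) were uncalled. Samhd1, which breaks down the building blocks of DNA, was at 801, 950.4 and 1017 CPM against 589.7, 536 and 563 in BL/6 and called lower at -0.70. In SM/J it was at 744, 646 and 783 against 447, 524 and 498, a ratio of -0.56 that missed the 1.5-fold limit. Bst2, or tetherin, which holds budding virus at the membrane, was at 171, 118 and 151 against 119, 91.7 and 79.4 in BL/6 and at 169, 271 and 176 against 30.6, 134 and 61.6 in SM/J. Its ratio was -0.65 in BL/6, where the aliquots overlapped, and -1.28 in SM/J, called lower. Ifi44 was called lower in SM/J, from 424, 337 and 428 to 79.7, 179 and 61.6 CPM, a ratio of -1.93 (95% interval -2.28 to -1.60), and had only 4 and 7 UMIs in BL/6.

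The OAS enzymes make oligoadenylates that switch on an RNA-cutting enzyme. Of 5 members, 3 of 4 were called lower in BL/6 and 3 of 3 in SM/J. Oasl2 was at 61.6, 59.04 and 57.2 CPM against 20.03, 15.2 and 11.6 in BL/6 and at 160.04, 112 and 93.8 against 0, 56.3 and 15.4 in SM/J, ratios of -1.90 (95% interval -2.31 to -1.49) and -2.19 (95% interval -2.89 to -1.54). Oas3 was at 39.6, 30.2 and 38.1 against 14.1, 8.96 and 6.37 and at 85.95, 46.8 and 106 against 12.3, 45.7 and 20.5, ratios of -1.83 and -1.58. Both were called lower in both strains. Oas1a was called lower in BL/6 at -1.06, while SM/J had 37 and 11 UMIs, too few for a call. Oas2 was at 21.9, 8.64 and 14.98 against 10.4, 4.83 and 5.21 CPM in BL/6, a ratio of -1.15 with overlapping aliquots, and at 44.5, 51.5 and 52.8 against 18.4, 17.6 and 17.96 in SM/J, called lower at -1.41. Oasl1, a family member without synthetase activity that represses Irf7, had 33 UMIs at 12 and 11 at 20 months in BL/6, against 32 then 7 in SM/J, too few for a call.

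Among the transcription factors all 4 were called lower in BL/6 and 3 of 4 in SM/J. Irf7, the factor that drives further interferon production, was at 127, 119.5 and 77.6 CPM against 51.9, 39.3 and 30.7 in BL/6, and at 210.4, 159 and 211 against 18.4, 109 and 30.8 in SM/J. Its ratios were -1.44 (95% interval -1.72 to -1.17) and -1.83 (95% interval -2.33 to -1.36). Stat2, of the complex that binds the element, was called lower at -1.60 and -0.98. Its partner Irf9 was at 64.7, 51.8 and 42.2 against 32.6, 39.3 and 28.96 in BL/6, called lower at -0.68, and at 65.2, 37.4 and 61.6 against 67.4, 49.3 and 43.6 in SM/J. There the aliquots overlapped and the ratio was -0.18 (95% interval -0.80 to 0.42). Sp100, a protein of nuclear bodies, was at 242, 256 and 267 against 153, 165 and 173 in BL/6 and at 509.8, 421 and 572 against 184, 419 and 254 in SM/J, ratios of -0.63 and -0.79, both called lower.

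The nucleic acid sensors detect foreign RNA and DNA. Of 6 members, 4 of 6 were called lower in BL/6 and 4 of 5 in SM/J. Zbp1, which binds nucleic acid in the left-handed form, was at 155, 159.8 and 153 CPM against 60.1, 57.9 and 49.2 in BL/6, a ratio of -1.48 (95% interval -1.71 to -1.25), and at 80.02, 98.2 and 87.9 against 42.9, 56.3 and 30.8 in SM/J, a ratio of -1.05 (95% interval -1.65 to -0.46). Ifih1, the receptor of long double-stranded RNA, was called lower at -0.99 and -1.30, and Ddx58, the receptor of RNA ends, at -0.92 and -1.50. Their relative Dhx58 was at 28.2, 35.999 and 28.6 against 21.5, 19.3 and 19.1 in BL/6, called lower at -0.60, and had 38 and 10 UMIs in SM/J.

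Ddx60 was at 18.8, 10.1 and 19.1 CPM against 11.9, 3.45 and 6.37 in BL/6, with overlapping aliquots, and at 109.7, 103 and 67.4 against 12.3, 21.1 and 17.96 in SM/J. The SM/J ratio of -2.30 (95% interval -3.14 to -1.52) was called lower, but came to 0.21 when each cell was thinned to 1000 UMIs. That thinned ratio rests on fewer UMIs and is given without an interval. Eif2ak2, the kinase that stops translation on double-stranded RNA, was at 45.9, 44.6 and 49.03 against 35.6, 33.8 and 36.5 in BL/6, a ratio of -0.39 under 1.5-fold. In SM/J it was at 113, 51.5 and 79.2 against 36.8, 70.4 and 20.5, a ratio of -1.05 with overlapping aliquots.

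Of the 5 remaining members all were called lower in BL/6 and 3 in SM/J. Rtp4, a chaperone of receptors, was at 50.1, 40.3 and 42.2 CPM against 19.3, 4.83 and 7.53 in BL/6 and at 130.4, 159 and 93.8 against 12.3, 49.3 and 7.698 in SM/J, ratios of -2.04 (95% interval -2.53 to -1.56) and -2.39 (95% interval -3.14 to -1.70). Lgals3bp, a secreted glycoprotein, was at 51.1, 44.6 and 38.1 against 5.19, 13.1 and 12.7 and at 88.9, 108 and 93.8 against 36.8, 49.3 and 20.5, ratios of -1.99 and -1.48. Epsti1 was at 419, 399 and 449 against 286, 251 and 261 and at 545, 435 and 451 against 239, 376 and 298, ratios of -0.67 and -0.62. These 3 were called lower in both strains. Phf11d and Ifi35 were called lower in BL/6 at -2.17 and -0.68, while in SM/J their aliquots overlapped at -1.66 and -0.69. Of the 27 members that passed the minimum in both strains, 17 were called lower in both, against 1.43% of all 4880 genes that passed in both: Ifit3, Isg15, Oasl2, Oas3, Irf7, Rtp4, Ifih1, Ddx58, Stat2, Xaf1, Zbp1, Parp14, Dtx3l, Herc6, Sp100, Epsti1 and Lgals3bp.

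**Figure D3:**
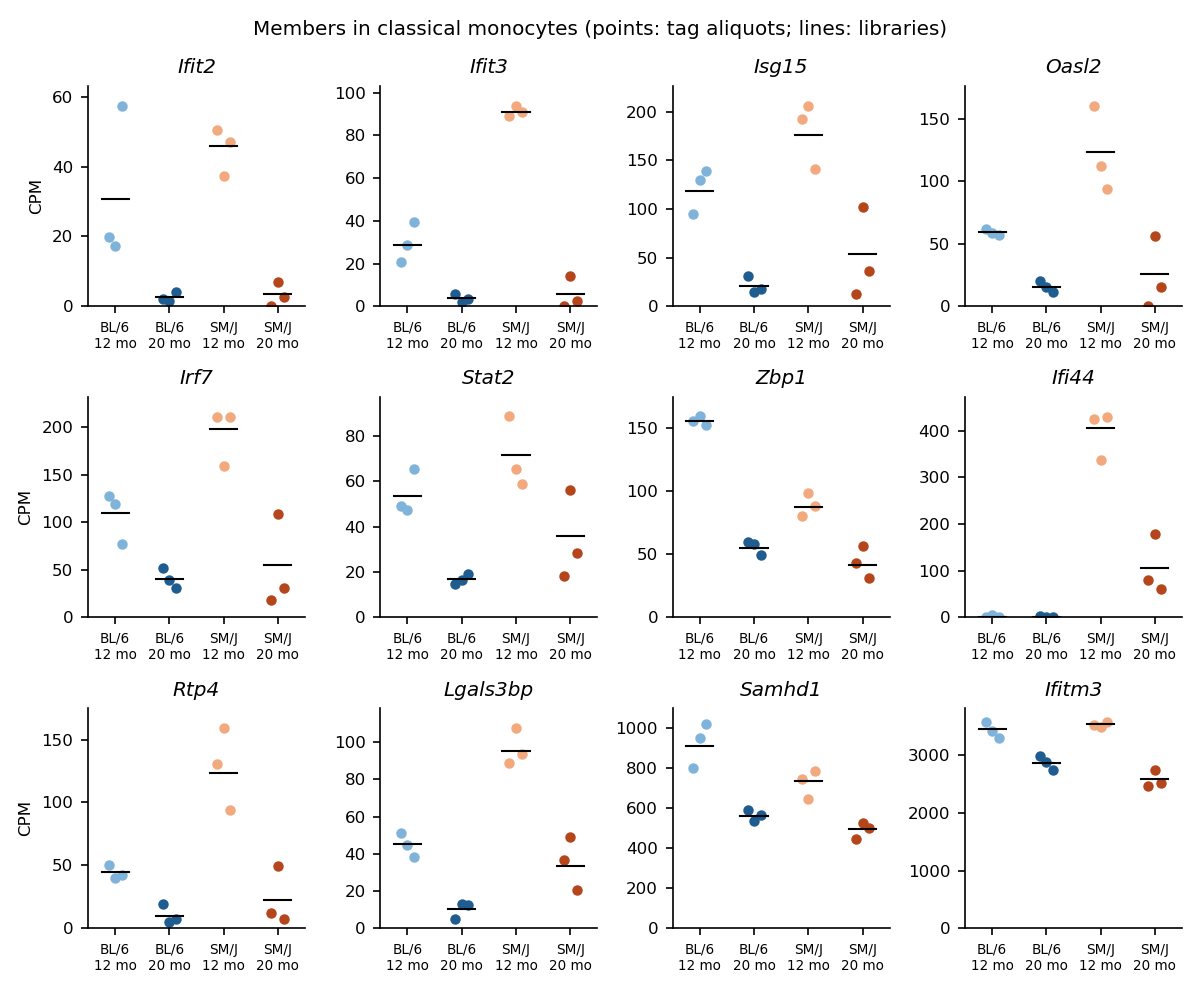
CPM of 12 members in classical monocytes, 1 panel a gene, with the 4 libraries on the horizontal axis. Points are the 3 tag aliquots and the line is the library: in Ifit3, Isg15 and Irf7 the 12-month aliquots of each strain stand above its 20-month aliquots, and the second SM/J aliquot at 20 months is often the highest of its library.

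Depth and markers were read beside these results. In classical monocytes the median UMIs a cell at 12 and 20 months were 8584.5 and 8323.5 in BL/6, against 6754 and 7187 in SM/J. The summed classical markers held 53.8 and 61.9 per 10000 UMIs in BL/6 (aliquots 51.1 to 59.9 and 57.7 to 66.9) and 64.0 and 109.5 in SM/J (53.6 to 75.8 and 92.9 to 119.8). The nonclassical markers held 18.7 and 16.7, and 23.5 and 18.4. The higher classical marker level of older SM/J cells moves with the lower module, and its part in the result was not tested. Platelet markers held 2.10 and 4.65 per 10000 in BL/6. Siglech, Cox6a2 and Klk1 of plasmacytoid dendritic cells and Ly6g and Camp of neutrophils were at 0 in classical monocytes of every library. They are a part of the markers listed for these types. The other listed markers are not given here, and admixture of these types was not tested.

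Each cell was thinned to 1000 UMIs, and shallower cells were left out (at most 4 classical and 7 nonclassical monocytes a library). The median classical monocyte then held 6 member UMIs in BL/6 at 12 months (quartiles 4 and 8) and 4 at 20 months (3 and 6), and in SM/J 8 (5 and 10) and 4 (3 and 6). Cells with at least 5 member UMIs made up 71.2% (exact Clopper-Pearson 95% interval 65.2 to 76.7) and 49.9% (45.3 to 54.5) in BL/6 at the 2 ages, and 76.0% (67.4 to 83.3) and 48.5% (38.6 to 58.6) in SM/J. Without Ifitm3 the shares were 20.0% and 4.67%, and 43.8% and 10.7%. Before thinning the median cell held 52 and 37 member UMIs in BL/6, and 52 and 34 in SM/J. In nonclassical monocytes 37.8% and 19.7% of BL/6 cells and 22.8% and 13.8% of SM/J cells held at least 5.

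Among lymphocytes, the B cell shares were 1.80%, 2.11%, 2.04% and 0.249%, and in T cells 4.66%, 3.21%, 3.62% and 2.17%. Intervals and aliquots cover counting and tags only, and free RNA in droplets, which also gives UMIs, was not removed.

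**Figure D4:**
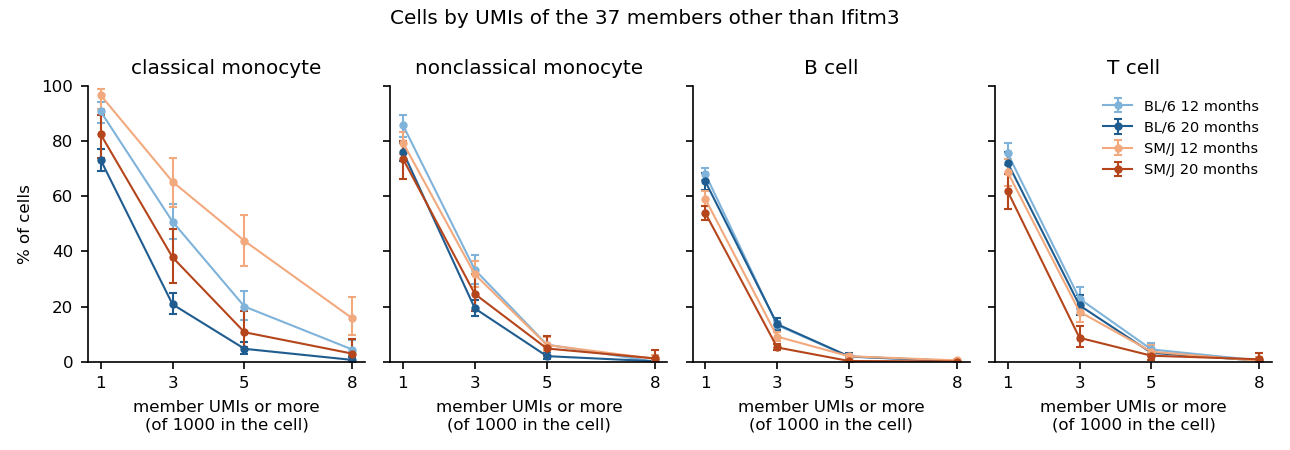
Percent of cells (vertical axis) that hold at least 1, 3, 5 or 8 UMIs of the 37 members other than Ifitm3 after thinning each cell to 1000 UMIs, in 4 cell types and 4 libraries. Bars are exact Clopper-Pearson 95% intervals: at 5 UMIs classical monocytes stand at 20.0% and 43.8% at 12 months and at 4.67% and 10.7% at 20 months.

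Nonclassical monocytes had fewer members called with age than classical monocytes. In BL/6, 10 of 24 were called lower at 20 months and 0 higher, against 3.85% and 4.61% of all 8174 genes, with a median ratio of -0.56 beside 0.035 over all genes. In SM/J, 11 of 26 were called lower and 0 higher, against 3.82% and 1.72% of 7306 genes, with a median of -0.70 beside -0.023. Called lower in both strains were Oas1a, Ddx60, Zbp1, Parp14 and Lgals3bp, 5 of the 22 that passed the minimum in both, against 0.363% of all 7158 such genes. None of the 5 Ifit genes passed the minimum in nonclassical monocytes, where Ifit2 had 17 UMIs in BL/6 at 12 months and 4 at 20 months.

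Zbp1 was at 154, 127 and 153 CPM in BL/6 at 12 months against 40.9, 52.4 and 38.9 at 20 months, and at 46.4, 46.1 and 46.3 against 29.8, 19.4 and 29.3 in SM/J. Ratios were -1.70 (95% interval -1.95 to -1.45) and -0.83 (95% interval -1.41 to -0.27). Ddx60 was at 22.6, 35.02 and 22.7 against 6.102, 6.86 and 9.72 in BL/6 and at 44.1, 43.5 and 47.2 against 35.8, 17.2 and 29.3 in SM/J, ratios of -1.70 and -0.74. Lgals3bp was at 15.8, 29.8 and 13.6 against 1.22, 3.12 and 3.24, the lowest BL/6 ratio at -2.57, and at 21.5, 31.9 and 33.1 against 2.98, 15.1 and 7.32 in SM/J, at -1.58. Younger and older aliquots were apart in each of these. Oas1a stood at 13.6, 15.6 and 7.58 against 3.05, 6.24 and 4.54, and at 10.2, 23.1 and 13.2 against 8.95, 8.62 and 4.88. Parp14 stood at 73.5, 68.8 and 63.7 against 53.1, 36.2 and 45.4, and at 73.5, 72.8 and 71.8 against 62.6, 49.5 and 31.7.

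Called lower in BL/6 were also Irf7 (-0.77), Irf9 (-0.84), Stat2 (-0.73), Ifih1 (-0.61) and Dtx3l (-0.71). In SM/J the lowest ratios belonged to Oas3, Rtp4, Oasl2 and Ifi44. Oas3 went from 27.2, 36.4 and 29.3 to 5.96, 0 and 4.88 CPM, a ratio of -2.90 (95% interval -4.12 to -1.72), and Rtp4 from 29.4, 31.1 and 47.2 to 8.95, 4.31 and 4.88, at -2.45. Oasl2 went from 18.1, 21.3 and 22.7 to 2.98, 4.31 and 7.32, at -1.87. Ifi44 went from 84.8, 56.8 and 72.7 to 14.9, 30.2 and 19.5, at -1.61. All 4 were called lower, as were Xaf1 (-1.44, from 24.9, 26.6 and 27.4 to 5.96, 2.15 and 19.5) and Ddx58 (-0.73, from 30.5, 37.3 and 28.3 to 17.9, 25.8 and 12.2).

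Ifitm3, Samhd1, Epsti1 and Sp100 missed 1.5-fold in both strains. Ifitm3 was at 2161, 2039 and 2127 against 1448, 1545 and 1469.8 in BL/6 and at 1184, 1108 and 1146 against 889, 948 and 749 in SM/J, ratios of -0.51 and -0.40. Samhd1 was at 735, 760.2 and 743 against 558, 541 and 589 and at 522, 424 and 463 against 391, 482 and 429, ratios of -0.41 and -0.083. The ratios of Epsti1 were -0.36 and -0.29, and those of Sp100 -0.20 and -0.44. Epsti1 aliquots held 441, 379 and 414 against 324, 305 and 331 and 403, 354 and 402 against 307, 353 and 278 CPM. For Sp100 they held 172, 165 and 180.4 against 153, 147 and 150.4 and 277, 301 and 262 against 203, 233 and 185.

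At the other end of the range, Phf11d (0.47) and Ddx58 (0.25) were the only tested members above 0 in BL/6, and Stat2 (0.29) in SM/J. Phf11d held 4.53, 7.78 and 4.55 against 5.49, 9.98 and 9.08 CPM in BL/6, Ddx58 20.4, 14.3 and 19.7 against 24.4, 24.9 and 15.6, and Stat2 24.9, 18.6 and 24.6 against 23.9, 36.6 and 21.95 in SM/J, with overlapping aliquots in each. Parp9 was near 0, at 53.2, 42.8 and 40.9 against 32.9, 43.7 and 47.3 in BL/6 and 47.5, 42.6 and 39.7 against 53.7, 34.5 and 34.2 in SM/J, ratios of -0.16 and -0.11. Ifi35 was at 42.99, 32.8 and 40.6 against 23.9, 43.1 and 36.6 in SM/J, a ratio of -0.11.

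Erythroid markers held 0.51, 11.4, 22.8 and 0.79 per 10000 UMIs of nonclassical monocytes in BL/6 at 12 and 20 months and then SM/J, B cell markers 0.93, 1.11, 8.49 and 3.18, and their part in these ratios was not tested. Thinning each cell to 1000 UMIs and applying the minimum again left 4 members in SM/J with a median of 0.0045 and 1 called lower, and 6 in BL/6 with 1 called lower, beside 3.88% and 3.72% of all genes then tested.

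**Figure D5:**
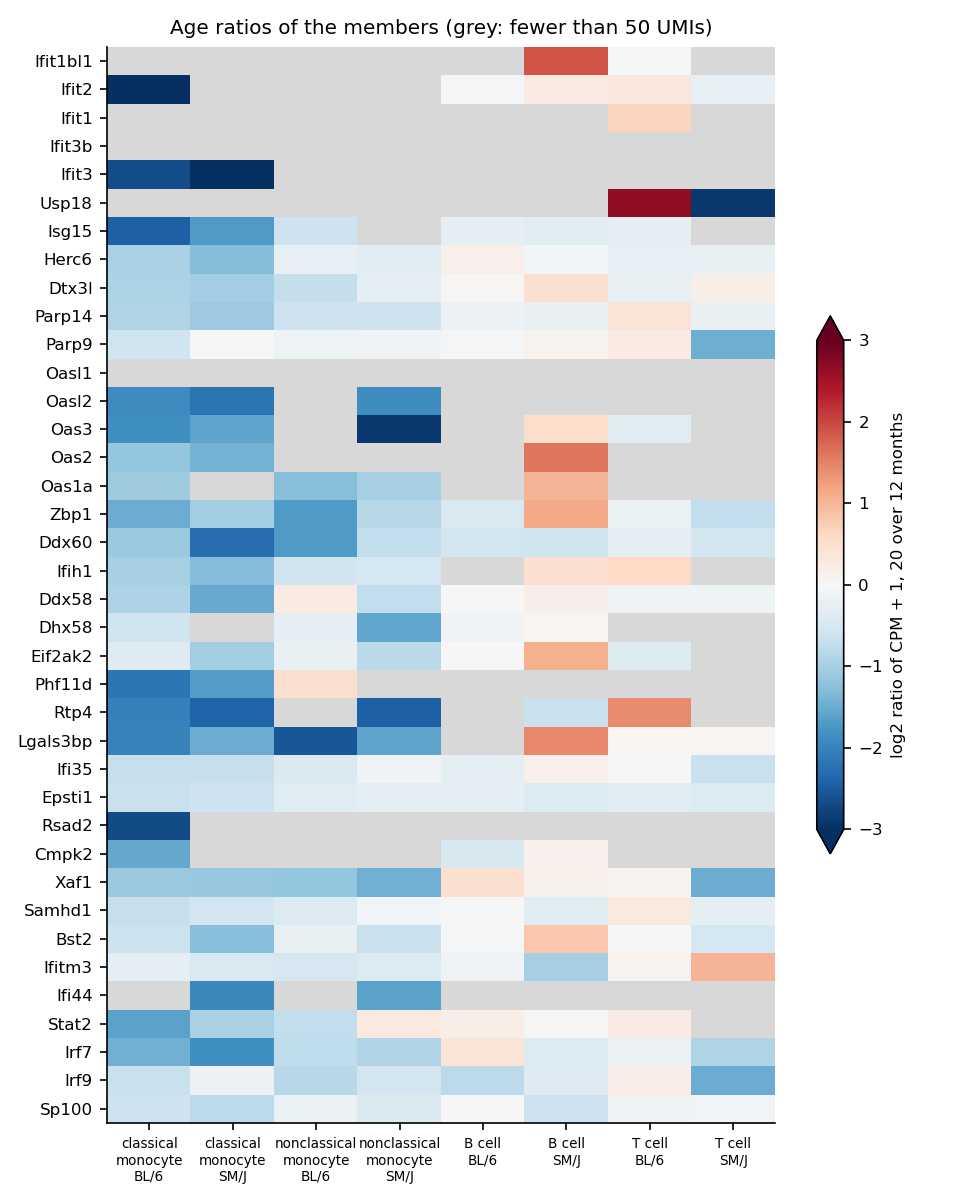
Log2 ratio of 20 over 12 months of each member (rows) in classical monocytes, nonclassical monocytes, B cells and T cells of BL/6 and SM/J (columns). Colour is limited at 3 on either side and grey marks members under 50 UMIs over both ages: both classical columns are below 0 throughout, while B and T cell columns hold both signs.

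B cells showed no shared direction with age. In BL/6, 1 of 22 members was called lower and 0 higher, against 2.16% and 2.32% of all 9594 genes, with a median of -0.042 beside 0.046 over all genes. The member called was Irf9, from 23.9, 30.4 and 27.9 to 20.6, 12.96 and 12.9 CPM, a ratio of -0.79 (95% interval -1.20 to -0.39). The next lowest BL/6 ratios were Ddx60 at -0.55 (10.4, 7.598 and 4.41 against 6.35, 5.401 and 3.67 CPM), Cmpk2 at -0.47 (3.703, 5.53 and 5.15 against 1.59, 3.24 and 4.29) and Zbp1 at -0.47 (18.2, 18.3 and 16.9 against 12.7, 9.72 and 14.1). The highest were Xaf1 at 0.48 (8.75, 7.598 and 6.98 against 15.1, 12.96 and 7.35), Irf7 at 0.38 (6.396, 3.799 and 4.78 against 6.35, 6.48 and 7.35), Stat2 at 0.20 (29.6, 26.2 and 32.3 against 37.3, 36.7 and 30.6) and Herc6 at 0.16 (21.9, 21.1 and 21.7 against 24.6, 22.7 and 24.5). None of these 7 was called.

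In SM/J, 2 of 29 were called lower and 7 higher, against 14.5% and 12.5% of all 10975 genes, with a median of 0.13 beside -0.055. Called higher were Ifit1bl1 at 1.89 (0.933, 1.301 and 0.455 to 6.11, 5.24 and 6.86 CPM), Oas2 at 1.62 (0.933, 0 and 0.909 to 4.95, 3.398 and 3.43), Lgals3bp at 1.45 (4.199, 2.17 and 5.001 to 11.6, 12.3 and 11.8) and Zbp1 at 1.14 (8.399, 7.81 and 15.002 to 21.5, 24.4 and 25.7). Eif2ak2 (1.07), Oas1a (1.03) and Bst2 (0.80, from 30.3, 30.8 and 32.7 to 52.2, 59.5 and 53.2) were called higher too.

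Ifitm3 at -0.99 (29.4, 29.1 and 23.2 to 12.4, 14.6 and 12.6) and Sp100 at -0.61 (261, 249 and 276 to 178, 167 and 169.9) were called lower. Rtp4 at -0.66 (1.87, 2.602 and 6.36 to 1.98, 2.69 and 0.935) and Ddx60 at -0.59 (7.47, 13.9 and 12.3 to 8.09, 6.94 and 7.17) had overlapping aliquots.

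Clusters 20 and 23 of the B cells hold 2 cells or fewer of each BL/6 library, and cluster 23 holds 846 cells of SM/J at 20 months. Without these clusters, a choice made after the values were seen, the median was -0.26, with 4 called lower and 1 higher, beside 4.69% and 2.74% of all genes, and Lgals3bp came to -0.027. SM/J B cells at 20 months also had a median of 9621.5 UMIs against 4196 at 12 months, and thinning to 1000 UMIs gave a median of -0.27 with 6 called lower and 1 higher, beside 10.2% and 8.67%.

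The most abundant members in B cells of BL/6 differed little between ages: Sp100 was at 428, 415 and 392 against 428, 422 and 392 CPM, Samhd1 at 271, 269 and 262 against 275, 282 and 250.5, and Epsti1 at 131, 128 and 119 against 102, 103 and 105. Ddx58 was at 48.1, 49.04 and 44.5 against 46.8, 49.7 and 46.5, Bst2 at 36.02, 28.3 and 30.5 against 31.7, 25.9 and 33.1, and Ifi35 at 42.1, 42.5 and 36.02 against 30.2, 34.6 and 34.3. Their BL/6 ratios ran from -0.29 (Epsti1) to 0.0022 (Ddx58).

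In T cells of BL/6, 0 of 27 members were called lower and 3 higher at 20 months, against 6.18% and 2.46% of all 7811 genes, with a median of 0.019 beside -0.087. The 3 were Usp18, Rtp4 and Ifih1. Usp18 was at 4.68, 6.04 and 3.47 CPM at 12 months and 41.8, 25.96 and 35.9 at 20 months, from 12 to 106 UMIs, a ratio of 2.66 (95% interval 1.90 to 3.44). Rtp4 was at 4.68, 15.7 and 2.31 against 22.4, 21.8 and 19.7, at 1.41, and Ifih1 at 11.7, 20.5 and 17.4 against 24.4, 22.8 and 27.8, at 0.60. Ifit1, at 8.195, 9.66 and 3.47 against 16.3, 9.34 and 9.87, had overlapping aliquots at 0.68. The lowest BL/6 ratios were not called: Eif2ak2 at -0.39 (23.4, 31.4 and 20.8 against 17.3, 18.7 and 19.7), Epsti1 at -0.34 (553, 495 and 473 against 364, 431 and 407), Oas3 at -0.32 (11.7, 13.3 and 10.4 against 8.15, 9.34 and 9.87) and Ddx60 at -0.27 (33.95, 26.6 and 37.03 against 23.4, 29.1 and 28.7).

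In SM/J, 6 of 19 were called lower and 1 higher, against 1.61% and 4.16% of all 5602 genes, with a median of -0.42 beside 0.080. Usp18 went from 41.8, 32.5 and 53.3 to 0, 2.32 and 12.2 CPM, from 73 to 5 UMIs, a ratio of -2.89 (95% interval -4.12 to -1.75). Xaf1 (44.02, 23.98 and 31.97 to 3.66, 9.28 and 18.3, at -1.50), Irf9 (30.8, 35.97 and 50.2 to 3.66, 9.28 and 27.5, at -1.49) and Parp9 (48.4, 20.6 and 44.2 to 3.66, 16.2 and 15.3, at -1.46) followed, with Irf7 at -0.89 and Ifi35 at -0.66. Ifitm3 was called higher, from 26.4, 10.3 and 25.9 to 29.3, 46.4 and 51.9, at 1.03. Dtx3l (0.18) and Lgals3bp (0.054) were also above 0, uncalled. With each cell thinned to 1000 UMIs, T cells had 2 members called lower and 0 higher in each strain, and the BL/6 median was -0.21. Of all BL/6 genes tested 8.33% were then called lower and 3.35% higher, and of those in SM/J 3.36% lower and 6.14% higher.

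The 6 most abundant members of T cells stayed under 1.5-fold in both strains. Sp100 was at 382, 380.2 and 341 against 345, 339.5 and 345 CPM in BL/6 and at 407, 437 and 407 against 406, 397 and 379 in SM/J. Samhd1 was at 140.5, 186 and 153 against 206, 182 and 194 and at 198, 179.8 and 204 against 172, 129.9 and 177. Parp14 was at 42.1, 60.4 and 39.3 against 61.1, 64.4 and 57.4 and at 70.4, 46.2 and 79.2 against 47.6, 64.97 and 48.8. Ratios of these 3, of Epsti1, Bst2 and Ddx58 ran from -0.53 (Bst2 in SM/J) to 0.38 (Parp14 in BL/6). Only 231 T cells made up the SM/J library at 20 months, and its aliquots held 63 to 90 cells each. No member was called lower or higher in both strains in B cells or in T cells.

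NK cells, plasmacytoid dendritic cells and macrophages were read as sums and for their leading members, without calls. Epsti1 and Sp100 led in NK cells, Epsti1 at 662, 452, 352 and 462 CPM in BL/6 at 12 and 20 months and SM/J at 12 and 20 months. In plasmacytoid dendritic cells Bst2, a known surface protein of this type in mice, was at 1113, 1101, 2939 and 1347 CPM, highest in SM/J at 12 months. Ifitm3 there was at 1214, 1439.7, 466 and 1823, lowest in that same library, and the module without Ifitm3 went from 50.5 to 27.0 per 10000 in SM/J, with aliquots apart, while the sum with it overlapped. Irf7 in these cells was at 52.1, 15.5, 193 and 50.9 CPM. These values mix with the conventional dendritic cells of the class, whose share differed between libraries. In macrophages Ifitm3 was at 1521, 1017, 1612 and 1593 CPM and Zbp1 at 92.7, 8.44, 9.74 and 28.8, the BL/6 value at 12 months standing above the rest on 30 cells.

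Between strains at 12 months the members of classical monocytes stood higher in SM/J. Of 37 that passed the minimum, 17 were called higher and 1 lower, against 9.52% and 6.21% of all 6510 genes, with a median of 0.75 beside 0.092 over all genes. All 5 OAS members were called higher, from 1.04 (Oasl2) to 1.57 (Oas2), and Ifit3 was at 1.62, with the aliquot values given above. Ddx60 was at 2.42 (95% interval 1.88 to 2.98), a ratio that came to -0.88 when cells were thinned to 1000 UMIs. The thinned ratio rests on fewer UMIs and is given without an interval. Rtp4 (1.44), Ifih1 (1.40), Lgals3bp (1.06), Ddx58 (1.12) and Sp100 (1.01) were called higher too. The 1 member called lower was Zbp1, at -0.83 (95% interval -1.19 to -0.47). Thinning gave 10 called higher, and with the minimum applied again 1 of 7, with a median of 0.18, beside 7.77% and 8.99% of all genes tested. Samhd1 (-0.31), Parp9 (-0.051) and Ifitm3 (0.035) were uncalled.

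At 20 months 3 of 25 were called higher and 1 lower, against 8.10% and 7.73% of all 7683 genes, with a median of 0.54 beside 0.074. Ifi44 (5.38), Lgals3bp (1.57) and Sp100 (0.85) were called higher and Dhx58 (-0.69) lower. Oas3 (1.44) and Isg15 (1.32) had overlapping aliquots, the second SM/J aliquot being the high one. Leaving out 1 aliquot moved the 3 called higher to between 4 and 8. With fewer aliquots the rule is easier to meet for every gene. The share of all genes called then is not given, so nothing is read from that rise.

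Ifi44 had the highest ratio between strains among the members of classical monocytes. It had 4 and 7 UMIs in BL/6 and 361 and 88 in SM/J, with log2 ratios of 7.24 (95% interval 6.25 to 8.13) at 12 months and 5.38 at 20 months. In nonclassical monocytes it had 0 UMIs at either age in BL/6, and SM/J was at least 54.4-fold higher at 12 months, and 20 months gave at least 35.6-fold, against a floor of 3 counts in the BL/6 library. In B cells 0 UMIs in BL/6 at 12 months met 35 in SM/J. Reads of both strains were aligned to a genome of the BL/6 type, and whether sequence differences between the strains alter the counts of a gene was not tested.

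Nonclassical monocytes at 12 months had 8 of 28 members called higher in SM/J and 4 lower, against 11.6% and 5.77% of all 7783 genes, with a median of 0.059 beside 0.11. The members called higher were Ifi44, Rtp4 (1.95, 9.05, 11.7 and 4.55 against 29.4, 31.1 and 47.2 CPM), Oas3 (1.30, 10.2, 11.7 and 15.2 against 27.2, 36.4 and 29.3), Xaf1 (0.97, 4.53, 20.8 and 15.2 against 24.9, 26.6 and 27.4), Oasl2 (0.89), Ddx58 (0.80), Ddx60 (0.73) and Sp100 (0.71). Those called lower were Zbp1 (-1.63), Ifitm3 (-0.88), Dtx3l (-0.85, 49.8, 59.7 and 48.5 against 33.9, 27.5 and 25.5) and Samhd1 (-0.68). The balance turned when each strain was clustered alone, with 4 called higher and 8 lower, beside 14.7% and 9.19% of all genes, and a median of -0.13. Thinning with the minimum applied again left 6 members with 0 called higher and 2 lower, beside 9.86% and 6.86%, and a median of -0.38. At 20 months 1 of 19 was called higher, Ddx60 at 1.69, and 2 lower, Ifitm3 at -0.78 and Zbp1 at -0.76 (0.58 when cells were thinned to 1000 UMIs), against 6.46% and 6.42% of all 7861 genes. The median was then -0.052 beside 0.045. Dhx58 (-0.89) and Eif2ak2 (-0.62) were low and uncalled, on 6 and 16 UMIs in SM/J.

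Strain ratios of lymphocytes went both ways. B cells at 12 months had 5 of 23 members called lower in SM/J and 2 higher, against 14.4% and 9.70% of all 10039 genes. Lower were Cmpk2 (-1.04), Stat2 (-1.003), Eif2ak2 (-0.91), Zbp1 (-0.73) and Sp100 (-0.65), and higher Isg15 (1.67) and Ifitm3 (0.79). Zbp1 came to 0.17 when cells were thinned to 1000 UMIs, and fewer members were then called lower. In cells with a leading tag share of at least 80%, which were 47 in SM/J, Ifitm3 was below 0. Fewer members were called either way in those cells. Isg15 was at 2.69, 4.49 and 6.25 CPM in BL/6 against 17.7, 11.3 and 20.002 in SM/J, and Stat2 at 29.6, 26.2 and 32.3 against 12.1, 15.6 and 15.002. At 20 months 4 of 28 were called lower and 6 higher, against 27.9% and 20.5% of all 10798 genes, and nothing is read from the members' count. Lower were Sp100 (-1.26), Stat2 (-1.18), Samhd1 (-0.91) and Epsti1 (-0.68), and higher Lgals3bp (2.66), Oas2 (1.95), Isg15 (1.66), Ifit1bl1 (1.31), Zbp1 (0.88) and Bst2 (0.82). Cluster 23 gave 846 of these SM/J cells and held 0 BL/6 cells. Without clusters 20 and 23 fewer members were called higher at 20 months, and their median was lower. The medians were -0.31 and -0.021 beside -0.091 and -0.17 over all genes.

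T cells at 12 months had 3 of 26 called lower and 3 higher, against 14.6% and 4.33% of all 7110 genes, with a median of 0.18 beside -0.16. Lower were Epsti1 (-1.22), Eif2ak2 (-1.04) and Dtx3l (-0.64), and higher Usp18 (2.94), Rtp4 (1.35) and Xaf1 (0.93). Dtx3l came to 0.52 when cells were thinned, and no member was then called higher. At 20 months 7 of 24 were called lower and 1 higher, against 6.90% and 6.01% of all 6867 genes, with a median of -0.55 beside 0.014. Lower were Usp18 (-2.61), Rtp4 (-1.71), Parp9 (-1.52), Ifih1 (-1.43), Epsti1 (-1.29), Zbp1 (-1.13) and Eif2ak2 (-1.01), and higher Ifitm3 (1.81). In thinned cells fewer members were called lower at 20 months and none higher. Epsti1 was lower in SM/J T cells at both ages, at 553, 495 and 473 CPM in BL/6 against 202, 214 and 236 in SM/J at 12 months, then 364, 431 and 407 against 150.1, 174 and 159 at 20 months. Scaling by the trimmed mean of M values shifted all ratios by 0.23 in B cells at 20 months, 0.16 in T cells at 12 months and -0.13 and -0.10 in nonclassical and classical monocytes at 12 months.

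Other genes of the pathway were read in classical monocytes from lists chosen with the members. Of 66 further type I interferon genes, 52 passed the minimum in BL/6 and 29 were called lower and 0 higher at 20 months, with a median of -0.76, where 4.12% of all genes were called lower and 4.10% higher. In SM/J 39 passed, 20 were called lower and 1 higher, with a median of -0.67, where 4.69% and 3.40% of all genes were. These shares hold for the other lists in classical monocytes too. Among the 4 most abundant, Ifi27l2a was called lower in both strains (-0.81 and -1.23) and Ly6e in SM/J (-0.59, with -0.52 in BL/6), while Ms4a4c (-0.40 and -0.55) was not called. Ifitm2, the neighbour and close relative of Ifitm3, was at 0.51 and 0.21, above 0 in both strains and uncalled. The 11 genes of the receptor and its signalling had medians near 0: 10 passed in each strain, 1 was called lower and 1 higher in each, and the medians were 0.028 and 0.044. Ifnar2, a receptor chain, was at 0.11 and 0.097, the kinase Jak1 at 0.023 and -0.25, and the phosphatases Ptpn1 at 0.033 and 0.067 and Ptpn6 at -0.43 and -0.40, all uncalled.

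Of 23 genes of nucleic acid sensing and interferon induction, 1 of 19 was called lower and 0 higher in BL/6, and 2 of 14 lower and 1 higher in SM/J, with medians of -0.025 and -0.30. Unc93b1 (-0.34 and -0.39), Irf5 (-0.39 and -0.27) and Irf8 (-0.23 and -0.33) were uncalled, and Traf3 (0.020 and -0.68) was called lower in SM/J. Interferon genes themselves were hardly captured. The 18 ligand genes held 6, 8, 14 and 17 UMIs over all kept cells of the 4 libraries, and none passed the minimum in any of the 4 cell types compared.

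Genes known for their response to interferon gamma were read the same way. Of 35, 16 of 24 were called lower and 0 higher in BL/6 classical monocytes, with a median of -0.73, and 8 of 17 lower and 0 higher in SM/J, with a median of -0.59. The invariant chain Cd74 (-0.57 and -0.75) and the class II genes H2-Aa (-0.48 and -0.62), H2-Ab1 (-0.46 and -1.05) and H2-Eb1 (-0.40 and -0.72) were its most abundant, and Cd74, H2-Aa and H2-Ab1 were called lower in SM/J. In nonclassical monocytes 21 of 26 were called lower in BL/6 (median -1.25), but 1 of 20 in SM/J (median -0.33), where 3.85% and 3.82% of all genes were called lower, a difference between strains that was not tested. The monocyte inflammatory genes went the other way in BL/6: 0 of 20 were called lower and 7 higher, with a median of 0.38, and in SM/J 1 of 15 lower and 4 higher, with a median of 0.067. Il1b, the main inflammatory cytokine of monocytes, was called higher in BL/6 at 1.20 (95% interval 0.99 to 1.41), from 95.1 to 219.7 CPM, and was uncalled in SM/J at 0.36. Nfkbia was at 0.41 and -0.42, Nfkb1 at -0.22 and -0.20, and Nfkbiz at 0.24 and 0.23. In nonclassical monocytes the further type I interferon genes had 21 of 49 called lower in BL/6 and 7 of 49 in SM/J, with 0 called higher in both, where 4.61% of all genes in BL/6 and 1.72% in SM/J were called higher.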

How the data were processed

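Blood cells of both strains and both ages were used, as 4 matrices split by sample tag from 2 droplet runs, 1 run a strain with both ages in it, and each matrix is called a library. The deposited values are raw UMI counts per gene and cell, made with Cell Ranger 7.0.1 per the file headers, and the genome build is mm10 and Seurat 4.3.0 was used per the submitters' processing notes. Kept cells had at least 500 UMIs, 200 genes and at most 10% mitochondrial UMIs, and doublets called by Scrublet were removed. Cells were clustered with scanpy 1.11.5 (2000 variable genes, the interferon genes left out, 30 components, 15 neighbours, Leiden resolution 1.0) and named from marker lists. Counts were summed per cell type, library and tag aliquot with numpy 2.4.6 and pandas 2.3.3. The trimmed mean of M values came from edgeR 4.0.16, which was used for scaling only.

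Ratios carry exact conditional binomial 95% intervals (scipy 1.17.1), sums exact Poisson and shares Clopper-Pearson intervals, and all of them and the floor of 3 counts cover counting error only. Ratios of single members in thinned cells rest on fewer UMIs and are given without an interval. With 1 library per strain and age no test between groups was made. A call needed a ratio of at least 1.5-fold, aliquots that did not overlap and at least 50 UMIs over both libraries, and the share of all genes called by the same rule stands beside the first count of members called in each comparison. Aliquots are cells by their leading tag, and 16 and 24 kept cells of the 12-month libraries, led by a tag of another library, entered no aliquot. The members and the gene lists were chosen with earlier results of these data known. Named members were the 6 with the most UMIs in a cell type and the 4 largest and 4 smallest ratios of each comparison, and other members are named by role. Those of the comparisons between strains in lymphocytes are given by their ratios. The gene list of the plot of 12 members was chosen after their values were seen. Mx1 and Mx2 are not analysed here.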

Additional observations from a re-analysis of the deposited data

Results flagged for a closer look

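Among members with at least 50 UMIs over both ages in both strains, the age ratio went opposite ways in 2, with aliquots that did not overlap in either strain, and the difference between the strains was not tested. The share of all genes that meets this rule is not given here, so nothing is read from the count. In T cells Usp18, the protease that removes ISG15, was higher at 20 months in BL/6 (log2 ratio 2.66) and lower in SM/J (-2.89), a difference of -5.55 for SM/J minus BL/6 (-5.546 before rounding). With each cell thinned to 1000 UMIs the Usp18 ratios were 0.72 and -4.70 in BL/6 and SM/J, and none of the 3 calls of BL/6 T cells remained (0 called higher). In cells with a leading tag share of at least 80%, of which SM/J at 12 and 20 months had 2 and 23, they were 6.26 and -7.68. In B cells Zbp1, the sensor of left-handed nucleic acid, was at -0.47 in BL/6, under the 1.5-fold limit, and at 1.14 in SM/J, a difference of 1.608. Without clusters 20 and 23 the Zbp1 ratio of SM/J B cells was 0.25, and 1 member was called higher in place of 7. Thinning to 1000 UMIs gave Zbp1 ratios of 0.22 and 0.51, again with 1 member called higher in SM/J. Cells with a leading tag share of at least 80% gave Zbp1 ratios of -1.38 and 1.93, and a mitochondrial limit of 5% gave -0.46 and 1.495.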

How the results depend on the processing

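Counts of members called and their medians were recomputed under other settings, and each value below that moved is followed by the reported one in parentheses. Shares of all genes called under these settings are not given in this section. A changed count of members may therefore follow a change in all genes, and nothing is read from it alone. The genes counted are those of the reported setting, a choice made after the values were seen, except where the minimum of UMIs was applied again. The settings with the minimum applied again, without clusters 20 and 23 and without Ifitm3 were chosen after seeing the data. The median with age in classical monocytes stayed below 0 under every setting run, from -1.28 to -0.69 in BL/6 and from -1.58 to -0.62 in SM/J. Of the ratios of named members, 128 in number, 51 of 1440 recomputed values changed sign, 11 of them of ratios that had been called, and 1267 moved by no more than the counting error of the reported ratio. Thinning each cell to 1000 UMIs gave, in classical monocytes, 16 (27) lower with age in BL/6, and 1 (0) higher and Ddx60 at 0.21 (-2.30) with age in SM/J. Classical monocytes also had 2 (1) lower, 10 (17) higher and Ddx60 at -0.88 (2.42) between strains at 12 months, and 0 (1) lower and 5 (3) higher between strains at 20 months. Thinning gave, in nonclassical monocytes, 6 (10) lower with age in BL/6, and a median of -0.46 (-0.70) and 3 (11) lower with age in SM/J. Nonclassical monocytes also had 2 (4) lower and 2 (8) higher between strains at 12 months, and 1 (2) lower, 2 (1) higher and Zbp1 at 0.58 (-0.76) between strains at 20 months. Thinning gave, in B cells, a median of -0.27 (0.13), 6 (2) lower and 1 (7) higher with age in SM/J, and 2 (5) lower and Zbp1 at 0.17 (-0.73) between strains at 12 months. B cells also had a median of -0.47 (-0.021) between strains at 20 months. Thinning gave, in T cells, a median of -0.21 (0.019), 2 (0) lower and 0 (3) higher with age in BL/6, and 2 (6) lower and 0 (1) higher with age in SM/J. T cells also had 0 (3) higher and Dtx3l at 0.52 (-0.64) between strains at 12 months, and 4 (7) lower and 0 (1) higher between strains at 20 months. Thinning with the minimum applied again gave, in classical monocytes, a median of -0.69 (-1.08) and 4 (27) lower with age in BL/6, and a median of -0.62 (-1.29) and 3 (21) lower with age in SM/J. Classical monocytes also had a median of 0.18 (0.75) and 1 (17) higher between strains at 12 months, and 0 (1) lower and 1 (3) higher between strains at 20 months. Filtering again gave, in nonclassical monocytes, 1 (10) lower with age in BL/6, and a median of 0.0045 (-0.70) and 1 (11) lower with age in SM/J. Nonclassical monocytes also had a median of -0.38 (0.059), 2 (4) lower and 0 (8) higher between strains at 12 months, and 1 (2) lower between strains at 20 months. Filtering again gave, in B cells, a median of -0.27 (0.13) and 1 (7) higher with age in SM/J, and 1 (5) lower and 1 (2) higher between strains at 12 months. B cells also had a median of -0.73 (-0.021) and 2 (6) higher between strains at 20 months. Filtering again gave, in T cells, 0 (3) higher with age in BL/6, and 0 (6) lower and 0 (1) higher with age in SM/J. T cells also had 1 (3) lower and 0 (3) higher between strains at 12 months, and 1 (7) lower and 0 (1) higher between strains at 20 months. Cells with a leading tag share of at least 80% gave, in classical monocytes, 0 (1) lower between strains at 20 months. The 80% share gave, in nonclassical monocytes, 7 (11) lower with age in SM/J, and 1 (2) lower between strains at 20 months. The 80% share gave, in B cells, 2 (1) lower with age in BL/6, and 2 (5) lower, 1 (2) higher and Ifitm3 at -0.46 (0.79) between strains at 12 months. B cells also had a median of 0.11 (-0.021) and 2 (4) lower between strains at 20 months. The 80% share gave, in T cells, a median of 0.47 (0.019) with age in BL/6, and a median of 3.27 (-0.42), 0 (6) lower, Irf9 at 3.27 (-1.49) and Parp9 at 4.199 (-1.46) with age in SM/J. T cells also had a median of -3.92 (0.18), 5 (3) lower, 0 (3) higher, Dtx3l at 0.85 (-0.64) and Rtp4 at -3.01 (1.35) between strains at 12 months, and 2 (7) lower and 0 (1) higher between strains at 20 months. A minimum of 200 UMIs gave, in classical monocytes, 16 (27) lower with age in BL/6, and 6 (21) lower with age in SM/J. Classical monocytes also had 8 (17) higher between strains at 12 months, and 0 (1) lower and 1 (3) higher between strains at 20 months. A minimum of 200 UMIs gave, in nonclassical monocytes, 5 (10) lower with age in BL/6, and a median of -0.44 (-0.70) and 2 (11) lower with age in SM/J. Nonclassical monocytes also had 3 (8) higher between strains at 12 months, and 0 (1) higher between strains at 20 months. A minimum of 200 UMIs gave, in B cells, 4 (7) higher with age in SM/J, and 1 (2) higher between strains at 12 months. A minimum of 200 UMIs gave, in T cells, 0 (3) higher with age in BL/6, and 0 (6) lower and 0 (1) higher with age in SM/J. T cells also had 1 (3) lower and 0 (3) higher between strains at 12 months, and 1 (7) lower and 0 (1) higher between strains at 20 months. The same cells with the minimum applied again gave, in classical monocytes, 0 (1) lower between strains at 20 months. That share filtered again gave, in nonclassical monocytes, 6 (10) lower with age in BL/6, and 7 (11) lower with age in SM/J. Nonclassical monocytes also had 1 (2) lower between strains at 20 months. That share filtered again gave, in B cells, 4 (7) higher with age in SM/J, and 1 (5) lower and 1 (2) higher between strains at 12 months. B cells also had a median of 0.11 (-0.021) and 2 (4) lower between strains at 20 months. That share filtered again gave, in T cells, 0 (3) higher with age in BL/6, and a median of 2.13 (-0.42), 0 (6) lower and 0 (1) higher with age in SM/J. T cells also had a median of -1.72 (0.18) and 0 (3) higher between strains at 12 months, and 0 (7) lower and 0 (1) higher between strains at 20 months. A 2-fold limit gave, in classical monocytes, 15 (27) lower with age in BL/6, and 0 (1) lower between strains at 12 months. Classical monocytes also had 0 (1) lower between strains at 20 months. A 2-fold limit gave, in nonclassical monocytes, 4 (10) lower with age in BL/6, and 7 (11) lower with age in SM/J. Nonclassical monocytes also had 1 (4) lower and 3 (8) higher between strains at 12 months, and 0 (2) lower between strains at 20 months. A 2-fold limit gave, in B cells, 0 (1) lower with age in BL/6, and 0 (2) lower with age in SM/J. B cells also had 2 (5) lower and 1 (2) higher between strains at 12 months, and 2 (4) lower between strains at 20 months. No minimum gave, in classical monocytes, 2 (1) lower and 7 (3) higher between strains at 20 months. No minimum gave, in nonclassical monocytes, 19 (11) lower with age in SM/J, and 3 (1) higher between strains at 20 months. No minimum gave, in B cells, 2 (1) lower and 1 (0) higher with age in BL/6, and 5 (2) lower with age in SM/J. B cells also had 7 (4) lower between strains at 20 months. No minimum gave, in T cells, 7 (3) higher with age in BL/6, and 12 (6) lower with age in SM/J. T cells also had 6 (3) higher between strains at 12 months, and 14 (7) lower between strains at 20 months. Clustering each strain alone gave, in classical monocytes, a median of 1.04 (0.75) and 0 (1) lower between strains at 12 months, and 5 (3) higher between strains at 20 months. Clustering each strain alone gave, in nonclassical monocytes, 16 (10) lower with age in BL/6, and a median of -0.13 (0.059), 8 (4) lower and 4 (8) higher between strains at 12 months. Nonclassical monocytes also had 4 (2) lower between strains at 20 months. Leaving out clusters 20 and 23 gave, in B cells, a median of -0.26 (0.13), 4 (2) lower, 1 (7) higher and Lgals3bp at -0.027 (1.45) with age in SM/J, and a median of -0.46 (-0.021) and 2 (6) higher between strains at 20 months. A mitochondrial limit of 5% gave, in B cells, a median of -0.14 (0.13) and 6 (2) lower with age in SM/J, and 2 (5) lower between strains at 12 months. A mitochondrial limit of 5% gave, in T cells, 2 (0) lower and 1 (3) higher with age in BL/6, and 2 (1) higher with age in SM/J. Scaling by the trimmed mean of M values gave, in B cells, 1 (2) lower with age in SM/J, and a median of 0.19 (-0.021) between strains at 20 months. Scaling by the trimmed mean of M values gave, in T cells, 5 (3) higher between strains at 12 months. A pseudocount of 5 CPM gave, in classical monocytes, 0 (1) lower between strains at 20 months. A pseudocount of 5 CPM gave, in B cells, 3 (5) lower between strains at 12 months. A mitochondrial limit of 20% gave, in nonclassical monocytes, 2 (1) higher between strains at 20 months. A mitochondrial limit of 20% gave, in T cells, 0 (1) higher with age in SM/J. Clustering with the interferon genes gave, in nonclassical monocytes, 2 (1) higher between strains at 20 months. A clustering resolution of 2.0 gave, in nonclassical monocytes, 2 (1) higher between strains at 20 months. Keeping called doublets gave, in nonclassical monocytes, 2 (1) higher between strains at 20 months.

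Leaving out 1 aliquot at a time gave 4 to 8 members higher and 0 to 3 lower in classical monocytes between strains at 20 months (reported 3 and 1). Nonclassical monocytes then had 0 to 1 higher with age in BL/6 (0), and 1 to 2 higher and 2 to 4 lower between strains at 20 months (1 and 2). B cells had 1 to 3 lower and 0 to 1 higher with age in BL/6 (1 and 0) and 1 to 3 lower with age in SM/J (2). T cells had 3 to 6 higher between strains at 12 months (3). With fewer aliquots the rule is easier to meet for every gene. Shares of all genes are not given beside these counts, and nothing is read from their rise. The T cells with a tag share of at least 80% numbered 2 and 23 in SM/J at 12 and 20 months. Fewer genes pass the minimum when counts are thinned, and for the other moved values the cause was not tested. No paired analysis was possible because each strain and age is a single matrix, so the groups compared share fewer than 2 replicate numbers. Depth limits the thin members: a ratio of a member under 50 UMIs was given no call.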
